A study of Mus musculus with 4 samples.

Results

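Rab GTPases were examined in the dendritic cells of the mouse spleen, on the probe sets whose only gene symbol in the platform annotation is Rab followed by a number, with at most a letter and a further digit after it. This rule uses names and no measured value. It found 132 probe sets of 59 genes, out of 45037 probe sets and 18193 named genes on the arrays once control probe sets were left out. CD8α+ dendritic cells were compared with CD8α− dendritic cells, both prepared from spleens of C57BL/6 mice, with 2 Affymetrix Mouse Genome 430 2.0 arrays for each population. The labels name no transgene, deletion or agent in either population, and give neither the age of the mice nor how the cells were sorted. Whether the replicate arrays came from separate animals is not stated, so the p-values measure only the spread between these arrays, which may be technical.

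Rab proteins are small GTPases that mark the membranes of the cell and decide which vesicle is moved, tethered or fused where. Guanine nucleotide exchange factors (GEFs) load them with GTP at the right membrane, GTPase-activating proteins (GAPs) switch them off, and effectors read the GTP-bound form. In dendritic cells they route phagosomes and endosomes toward lysosomes for loading on MHC class II, or keep antigen in milder compartments from which it can reach MHC class I, the process called cross-presentation. Mouse CD8α+ dendritic cells of the type 1 lineage (cDC1) are known for cross-presentation. The CD8α− population is mostly of the type 2 lineage (cDC2), which is better known for priming CD4 T cells.

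Signals below are MAS5 intensities after quantile normalisation of the 4 arrays, given for replicates 1 and 2 of each population in that order. Each difference is the mean log2 signal of the CD8α+ arrays less that of the CD8α− arrays, ± the limma fit's standard error (SE), with n = 2 arrays per population. A probe set was tested when its mean signal reached 23.0, the median of all probe sets. Background is the brightest of 27 Bacillus control probe sets on each array, 30.8 and 21.8 on the CD8α+ arrays and 28.3 and 34.5 on the CD8α− arrays. Where no array of a population exceeded it, the fold is a lower bound, written as at least N-fold, and no fold is given where only 1 array did. A probe set's level is never set against that of another probe set.

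The populations differed in the gene that names them. Cd8a, which codes for the surface chain that defines the populations, gave on its brightest probe set 2014 and 2335 in CD8α+ cells and 15.2 and 27.0 in CD8α− cells, at least 69.4-fold higher. Of the 11 tested cDC1 markers, Cd8a among them, 10 were brighter in CD8α+ cells at an unadjusted p under 0.05 in limma. Of the 6 tested cDC2 markers 5 were dimmer. Over all tested genes 7.13% were higher and 8.82% lower. CD8α− replicate 2 stood apart. Its deposited signals had a trimmed mean of 48.7, against 106 to 127 on the other arrays. Its 3′ to 5′ ratio of the Gapdh controls was 10.7, against 1.53 to 2.02 on the other arrays. The same ratio of the Actb controls departed the other way, at 0.759 against 1.62 to 1.69. Log2 signals of the 87 tested Rab probe sets gave r = 0.962 within the CD8α+ pair and r = 0.774 within the CD8α− pair, a description across probe sets that are not independent. The CD8α− arrays differed over 2-fold on 30 of the 87 Rab probe sets (34.5%, against 32.2% of all tested probe sets), and the CD8α+ arrays on 8 (9.2%, against 8.47%). Markers of other cells also differed. The summed signal of NK cell markers was 439 and 560 in CD8α+ cells and 2400 and 1309 in CD8α− cells. Of these markers 3 of 7 tested genes were lower (8.82% of all tested genes). That of neutrophil markers was 6660 and 7300 against 13770 and 10890, with 4 of 5 lower, and that of monocyte and macrophage markers 1880 and 1934 against 4008 and 5856, with 4 of 7 lower and 1 higher. Csf1r, at 213.5 and 213.2 against 1305 and 1886, is in both the monocyte and macrophage list and the cDC2 list. In RNA of bulk populations, fewer cells of a type and less RNA per cell cannot be told apart.

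The DNA in front of 4 of the 7 Rab genes with an unadjusted p under 0.05 (given below) is shown to make visible where their transcripts start. RefSeq's promoter table for GRCm38.p6 held 60 windows for 48 of the 59 Rab genes. It gave no window for Rab7b. Each window is the 250 bases before an annotated start, read 5′ to 3′ on the gene's strand, and capitals mark matches to the motifs named after them, on either strand.
Rab32, chr10:10558208-10558457, minus strand: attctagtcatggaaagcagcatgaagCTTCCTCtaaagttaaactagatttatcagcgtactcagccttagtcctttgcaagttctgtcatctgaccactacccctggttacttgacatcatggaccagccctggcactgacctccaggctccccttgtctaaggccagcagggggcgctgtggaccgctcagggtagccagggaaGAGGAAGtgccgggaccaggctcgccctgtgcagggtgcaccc
Rab6a, chr7:100607336-100607585, plus strand: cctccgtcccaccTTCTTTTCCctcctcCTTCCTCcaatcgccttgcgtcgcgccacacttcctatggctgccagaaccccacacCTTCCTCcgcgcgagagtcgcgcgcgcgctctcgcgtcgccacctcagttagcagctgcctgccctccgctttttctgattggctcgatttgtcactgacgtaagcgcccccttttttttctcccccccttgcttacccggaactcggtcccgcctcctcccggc
Rab13, chr3:90220534-90220783, plus strand: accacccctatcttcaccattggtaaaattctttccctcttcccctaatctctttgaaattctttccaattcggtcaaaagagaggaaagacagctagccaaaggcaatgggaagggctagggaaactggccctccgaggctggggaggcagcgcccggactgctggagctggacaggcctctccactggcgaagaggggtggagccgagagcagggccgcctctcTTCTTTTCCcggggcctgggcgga
Rab20, chr8:11478641-11478890, minus strand: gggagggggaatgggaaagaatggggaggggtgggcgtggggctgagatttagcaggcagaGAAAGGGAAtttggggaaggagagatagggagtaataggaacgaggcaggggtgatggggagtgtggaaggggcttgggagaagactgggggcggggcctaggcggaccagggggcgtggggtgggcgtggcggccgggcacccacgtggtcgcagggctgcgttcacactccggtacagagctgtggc

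The capitals in the Rab32 window are matches to the PU.1-type core GAGGAAG, found in 10.6% of all 32851 windows of that length and in 5 of the 60 Rab windows. Those in the Rab13 window match the ETS-IRF composite core GGAANNGAA (6.99% of all windows, 6 of the Rab windows). The Rab6a window holds that core and the PU.1-type core, with no overlap between the matches. The Rab20 window holds the IRF pair core GAAANNGAA (7.13% of all windows, 3 of the Rab windows). These 4 windows were shown because they carry a match, and the motifs were chosen with the results known. The matches describe letters only. The other windows of the differing genes, for Rab27a, Rab29 and the other annotated start of Rab13, held none of the 6 motifs searched, which were those 3, the AP-1 site TGANTCA, the ETS core CCGGAAG and the E-box TCACGTG.

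Of the 132 Rab probe sets 87 reached the signal for testing, and they covered 46 of the 59 genes. The dimmest tested Rab probe set, of Rab6b, averaged 23.2, and the brightest untested one, of Rab34, averaged 22.1. Above background on all 4 arrays were 59 probe sets, belonging to 33 genes, and 29 probe sets were above it on none. The 13 genes without a tested probe set were Rab15, Rab17, Rab23, Rab25, Rab26, Rab33a, Rab34, Rab37, Rab3a, Rab3b, Rab3c, Rab40b and Rab42. Among them are Rab34, which acts in phagosome maturation, and Rab3b and Rab3c, which have been tied to MHC class I recycling in mouse dendritic cells. Rab34 gave 15.7 and 10.03 in CD8α+ cells and 22.95 and 39.9 in CD8α− cells on its brighter probe set. Rab3b gave 5.93 and 3.89 against 1.27 and 20.5, and no Rab3b or Rab3c probe set was above background on any array. Rab37 is a secretory granule Rab. It gave 1.73 on both CD8α+ arrays and 5.47 and 77.9 on the CD8α− arrays, a signal carried by CD8α− replicate 2 alone.

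No Rab probe set passed an adjusted p of 0.05 in limma with Benjamini-Hochberg adjustment over all 22519 tested probe sets, and neither did any other probe set (0%). The lowest adjusted p of a Rab probe set was 0.115. At an unadjusted p under 0.05, 8 Rab probe sets were higher in CD8α+ cells (9.2%, against 7.75% of all tested probe sets) and 6 were lower (6.9%, against 7.79%). By gene, taking each gene at its brightest tested probe set, 4 of 46 were higher (8.7%, against 7.13% of 10532 genes) and 3 were lower (6.52%, against 8.82%). These shares lie near those of all genes. The higher genes were Rab13, Rab7b, Rab32 and Rab6a, and the lower ones were Rab27a, Rab20 and Rab29. The other probe sets at an unadjusted p under 0.05 were further ones of Rab7b and Rab6a and 1 each of Rab11b and Rab12, which were higher, and 1 each of Rab1a, Rab2a and Rab5b, which were lower. Rab13 and that Rab12 probe set averaged below the signal for testing in CD8α− cells, and those of Rab2a and Rab5b did in CD8α+ cells. They were tested only through the population where they were brighter, and the counts include them. An exact permutation test of 2 arrays against 2 cannot give a p below 0.333 and was not used for calls.

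The arrays of the populations did not overlap on 33 Rab probe sets with both CD8α+ arrays on top (37.9%, against 26.1% of all tested probe sets) and on 18 with both below (20.7%, against 26.2%). By gene, 15 of 46 had both CD8α+ arrays on top (32.6%, against 25.6% of all tested genes) and 12 had both below (26.1%, against 28.3%). Over the 46 genes 25 differences were positive and 21 negative, where 5151 of all 10532 tested genes were positive and 5380 negative. The median was 0.07 on the log2 scale, against −0.02 over all tested genes. The count of calls depended on which array was used. Without CD8α− replicate 1 there were 14 higher and 9 lower Rab genes, but 22.7% and 21.4% of all genes were then higher and lower too. In that fit 13 Rab probe sets had an adjusted p under 0.05 in limma, as did 12.8% of all tested probe sets. Without CD8α− replicate 2 there were 11 and 5 Rab genes (15.9% and 12.3% of all genes). Without CD8α+ replicate 1 there were 1 and 2 (2.00% and 3.25% of all genes), and without CD8α+ replicate 2 there was 1 each way (1.92% and 4.31%). Those fits leave 1 array in a population, which is assumed to vary like the other pair. The scale mattered as well: on the deposited scale, where CD8α− replicate 2 is dimmest, 8 genes were higher and 0 lower, against 10.6% and 2.38% of all genes. Trimmed mean scaling gave 5 and 7 (5.93% and 16.7% of all genes), and median centring gave 20 and 1 (28.9% and 4.26%). These scalings moved the median of all genes to 0.67, −0.18 and 0.69.

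**Figure D1:**
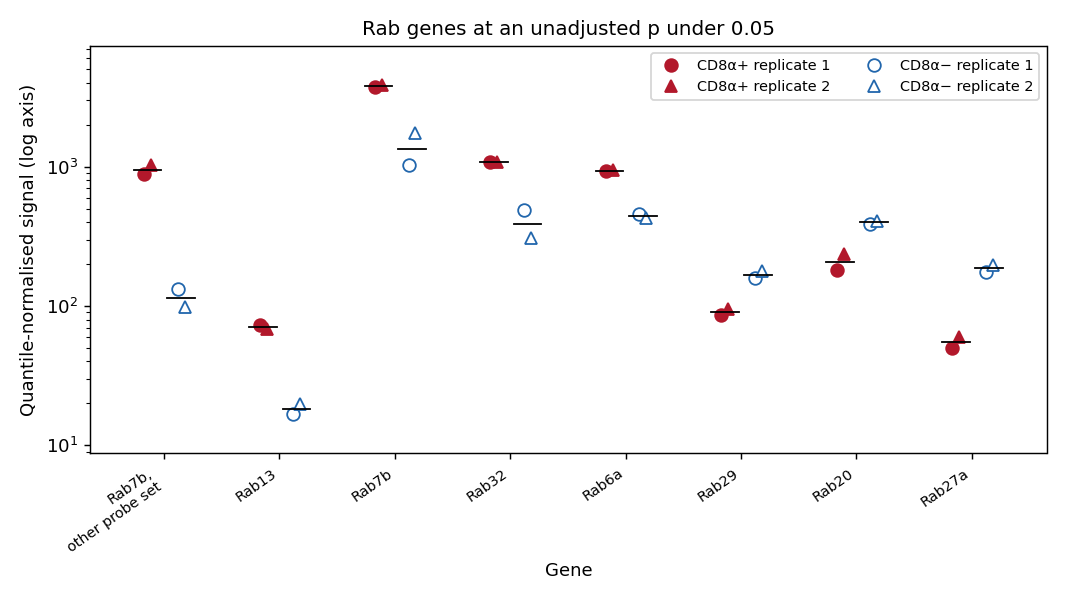
Quantile-normalised signal (log axis) of the 7 Rab genes at an unadjusted p under 0.05, with a second probe set of Rab7b. Filled points are the CD8α+ arrays, open points the CD8α− arrays, and bars the mean on the log scale. The CD8α+ arrays lie above the CD8α− arrays for Rab7b, Rab13, Rab32 and Rab6a and below them for Rab29, Rab20 and Rab27a.

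Among Rabs of late endosomes and lysosomes, Rab7b stood out. Rab7b works between late endosomes and the Golgi and is known to dampen Toll-like receptor signalling in mouse macrophages. Its brightest probe set gave 3704 and 3832 in CD8α+ cells and 1032 and 1733 in CD8α− cells, 2.82-fold higher (1.49 ± 0.39, adjusted p = 0.229). A second probe set gave 888 and 1022 against 133 and 98.0, 8.35-fold higher (3.06 ± 0.34, adjusted p = 0.115). The arrays of the populations were apart on both, but both were picked out by their p on the same arrays, so this adds no support. The remaining one gave 122.5 and 80.7 against 5.54 and 76.4, so on it the CD8α− replicates disagreed (2.11 ± 1.21). Leaving out CD8α− replicate 1 brought the gene's difference to 1.12, and leaving out CD8α− replicate 2 to 1.87. Without CD8α+ replicate 1 or 2 it was 1.52 or 1.47 and its unadjusted p was above 0.05.

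Rab7, the general late endosome and lysosome Rab, gave 5031 and 5243 in CD8α+ cells and 4216 and 3403 in CD8α− cells (0.44 ± 0.32, adjusted p = 0.532). Its other probe set pointed the other way, with 152 and 165 against 184 and 319 (−0.61 ± 0.40). Rab39, tied to phagosome acidification and, in mouse dendritic cells, to cross-presentation, gave 90.5 and 79.3 against 40.8 and 63.6 (0.73 ± 0.38, adjusted p = 0.413). The populations were apart on it, but the CD8α− arrays differed from each other by 0.64 log2 units, nearly as much. Rab9, which returns mannose 6-phosphate receptors to the Golgi, gave 183 and 169.5 against 210 and 425 (−0.76 ± 0.46). Rab36, Rab9b and Rab39b were within or near background, with differences of −0.03, −0.57 and −0.64. Over the 7 tested genes of this group 3 differences were positive (5151 of 10532 over all genes), with a median of −0.03. Rab9b and Rab39b averaged below the signal for testing in CD8α+ cells, where they were dimmer, and the count includes them.

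Rabs of lysosome-related organelles split. Rab32, which builds melanosomes and related organelles and acts against intracellular bacteria in mouse macrophages, gave 1074 and 1077 in CD8α+ cells and 487 and 309 in CD8α− cells. It was 2.77-fold higher (1.47 ± 0.37, adjusted p = 0.22), with the CD8α+ arrays nearly equal and both far above the CD8α− arrays. Without CD8α− replicate 1 the difference was 1.80 and without CD8α− replicate 2 it was 1.14, while without either CD8α+ array it was 1.47 with an unadjusted p above 0.05. Its close relative Rab38 was dim, with 31.5 and 12.4 against 60.85 and 24.0 (−0.95 ± 0.70), each population having 1 array above background. Rab29, which recruits the kinase Lrrk2 to membranes, gave 86.1 and 94.5 in CD8α+ cells and 159 and 177 in CD8α− cells. It was 1.86-fold lower (−0.90 ± 0.31, adjusted p = 0.296). On the deposited scale the Rab29 difference was −0.08, where the median of all genes was 0.67. Without CD8α+ replicate 1 or 2 it was −0.83 or −0.96, with an unadjusted p above 0.05 each time.

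Of 9 listed secretory Rabs 4 were tested, Rab27a, Rab27b, Rab44 and Rab3d. The other 5 were too dim. Rab3d averaged below the signal for testing in CD8α+ cells and passed only through CD8α− replicate 1. It was thus tested only through the population where it was brighter, and no count over these genes is drawn on. Rab27a, which docks secretory granules and, in mouse dendritic cells, brings the NADPH oxidase to phagosomes, gave 50.4 and 59.6 in CD8α+ cells and 177 and 198 in CD8α− cells. It was 3.42-fold lower (−1.77 ± 0.32, adjusted p = 0.151), and the CD8α− arrays differed from each other by 0.17 log2 units. Another probe set of Rab27a gave 31.9 and 29.4 against 17.8 and 21.0 (0.66 ± 0.32, adjusted p = 0.391), the opposite direction, with neither CD8α− array above background. Taking the median over the gene's probe sets, the Rab27a difference was −0.56 and its unadjusted p was above 0.05. The unadjusted p was also above 0.05 on the deposited scale, at a difference of −1.09, and without CD8α+ replicate 1, at −1.65. Rab27a is also used by cytotoxic lymphocytes and neutrophils, and the summed NK cell and neutrophil markers given above were lower in CD8α+ cells. Those of T cells were not, at 482 and 663 in CD8α+ cells and 457 and 496 in CD8α− cells, with 0 of 5 tested genes called. Of the 7 tested NK cell markers, Gzma, Klre1, Nkg7 and Prf1 were above background on every array, and Ncr1, Klra8 and Eomes on 1 of the 2 CD8α+ arrays and both CD8α− arrays. Prf1, the perforin of cytotoxic cells, gave 81.0 and 102 against 56.4 and 120 (a difference of 0.14), with overlap. The other tested NK cell markers all had negative differences. These were −3.24 for Klra8, −2.34 for Nkg7, −1.80 for Eomes, −1.66 for Gzma, −1.46 for Ncr1 and −0.78 for Klre1, the last with overlap. The 5 tested neutrophil markers were above background on every array. The part of such cells in the Rab27a difference was not tested.

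Rab27b, the paralog of Rab27a, gave 31.15 and 28.9 in CD8α+ cells and 48.0 and 60.9 in CD8α− cells (−0.85 ± 0.33, adjusted p = 0.328). Rab44, a large Rab of mast cell granules in the mouse, gave 47.75 and 16.8 against 77.9 and 70.6 (−1.39 ± 0.59, adjusted p = 0.357), with only CD8α+ replicate 1 above background among the CD8α+ arrays. Both were apart between the populations. Rab3d, a Rab of regulated secretion, gave 4.75 and 25.5 against 49.8 and 14.9, and its arrays overlapped (−1.03 ± 0.91).

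**Figure D2:**
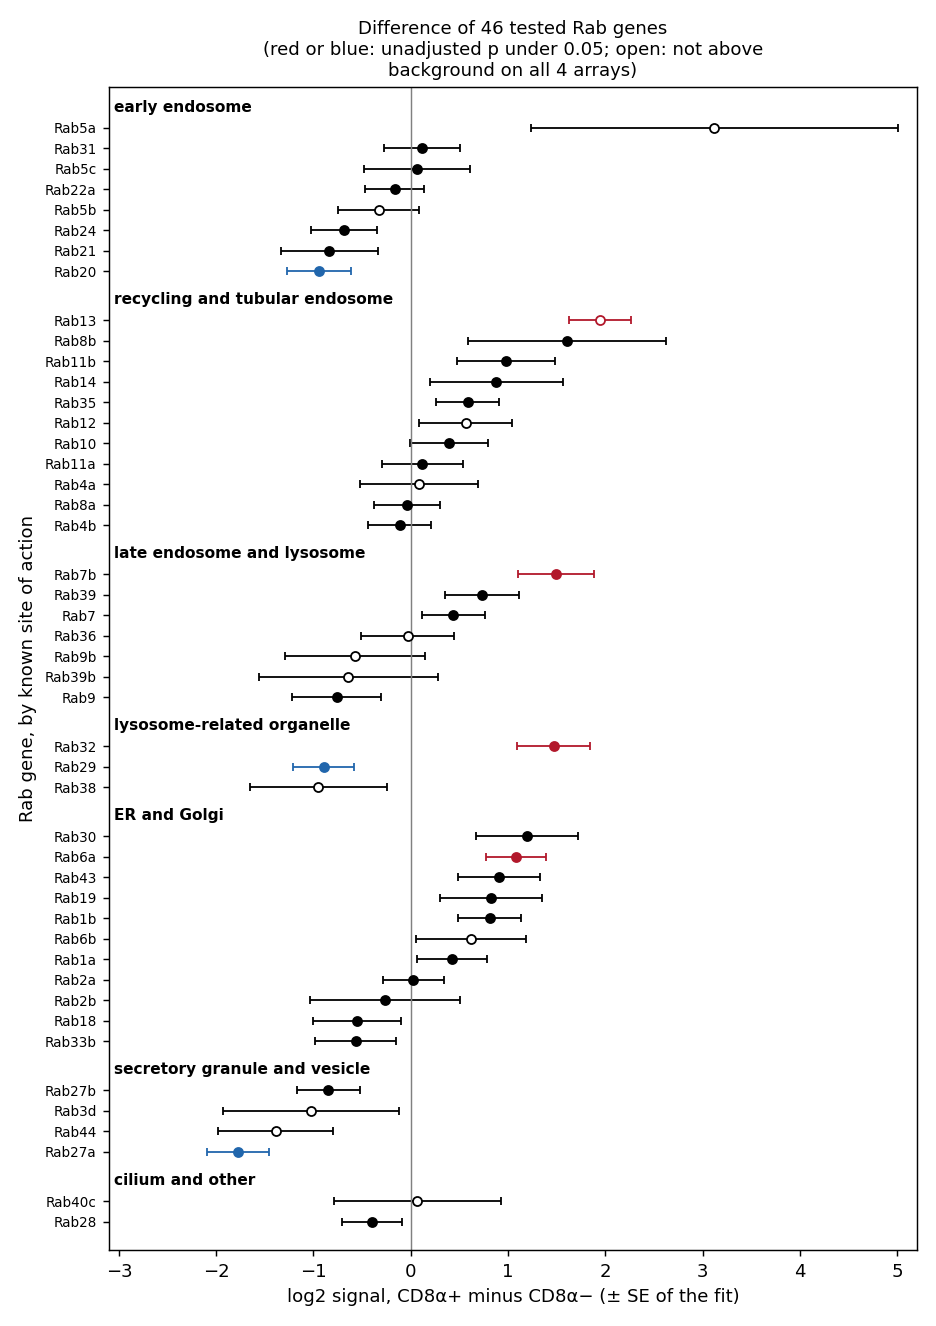
Log2 difference, CD8α+ minus CD8α−, of the 46 tested Rab genes, grouped by known site of action, with bars for ± 1 SE of the limma fit (n = 2 arrays per population). Coloured points have an unadjusted p under 0.05 and open points were not above background on all 4 arrays. Rab13, Rab7b, Rab32 and Rab6a are the coloured points right of 0 and Rab27a, Rab20 and Rab29 those left of it. Right of 0 lie 9 of 11 recycling Rabs and 8 of 11 Rabs of the ER and Golgi. Over all tested genes, which are not drawn, 5151 of 10532 differences were positive.

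In the recycling and tubular endosome group 9 of 11 differences were positive, with a median of 0.56. Over all genes 5151 of 10532 were positive. The differences of Rab14 and Rab8b rested on CD8α− replicate 2, as given below. In this group 1 gene had an unadjusted p under 0.05 in limma, where 7.13% of all genes were higher. That gene was Rab13, which carries cargo from the trans-Golgi network and recycling endosomes to the cell surface. Rab13 gave 73.3 and 67.95 in CD8α+ cells and 16.8 and 19.95 in CD8α− cells, the CD8α− values below background on both arrays. It was at least 2.26-fold higher (1.95 ± 0.32, adjusted p = 0.139). Both CD8α− arrays were also below the signal for testing. Like Rab3d, Rab13 was thus tested only through the population where it was brighter. It was tested in 13 alternative settings, where Rab32, Rab7b and Rab6a were tested in 14. Rab13 was the one Rab gene that stayed under an unadjusted p of 0.05 in all 13 alternative settings in which it was tested, with differences from 1.14 to 2.23.

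The other recycling Rabs varied more between CD8α− arrays. Rab11a, the Rab of the recycling compartment that stores MHC class I in mouse dendritic cells, gave 673 and 678 in CD8α+ cells and 463 and 836 in CD8α− cells (0.12 ± 0.42, adjusted p = 0.899). On its other probe set it gave 355 and 239 against 120 and 5.71, where CD8α− replicate 2 was below background. Rab11b gave 1023 and 1145 against 832.5 and 363 (0.98 ± 0.51, adjusted p = 0.415), and its second probe set gave 212 and 225 against 87.85 and 132.5 (1.02 ± 0.36, adjusted p = 0.305). The remaining Rab11b probe set gave 110 and 144 against 21.3 and 73.8 (1.66 ± 0.68), with CD8α− replicate 1 below background. On all 3 tested Rab11b probe sets the CD8α+ arrays were on top. Rab12, which sends the transferrin receptor to lysosomes, gave 49.6 and 53.45 against 24.9 and 13.9 on a dimmer probe set, at least 1.65-fold higher (1.47 ± 0.42, adjusted p = 0.246). Its brighter probe set overlapped, at 47.7 and 80.7 against 55.1 and 31.9.

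Rab14, found on the storage endosomes from which mouse dendritic cells cross-present, gave 1083 and 1023 in CD8α+ cells and 1076 and 304 in CD8α− cells (0.88 ± 0.68). That difference rested on CD8α− replicate 2, without which it was −0.03. Rab8b, which acts in exocytosis and autophagy, did the same, with 5514 and 5373 against 4909 and 650 (1.61 ± 1.02, and 0.15 without CD8α− replicate 2). Rab35, which governs fast recycling from endosomes, gave 242 and 235 against 179 and 141 (0.59 ± 0.32, adjusted p = 0.438), the populations being apart. Rab10, which moves Toll-like receptor 4 to the surface of mouse macrophages, gave 1287 and 1215 against 722.5 and 1248 (0.40 ± 0.40). The other 2 Rab10 probe sets gave 1301 and 1098 against 793.5 and 42.85, and 1148 and 1144 against 689.5 and 156. Rab10 was thus lower on CD8α− replicate 1 by a similar amount on all its probe sets, while CD8α− replicate 2 ranged from equal to far dimmer. Rab4a, Rab4b and Rab8a had differences of 0.09, −0.11 and −0.04.

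Among early endosome Rabs 3 of 8 differences were positive (5151 of 10532 over all genes), with a median of −0.25. Rab20, tied to phagosome maturation in mouse macrophages, gave 182 and 236 in CD8α+ cells and 387 and 410 in CD8α− cells. It was 1.92-fold lower (−0.94 ± 0.33, adjusted p = 0.299). Its direction depended on the scale: on the deposited scale and with median centring the difference was 0.02, which relative to the median of all genes was −0.65 and −0.66. Without CD8α+ replicate 1, CD8α+ replicate 2 or CD8α− replicate 2 it was −0.75, −1.13 or −0.90, and the unadjusted p was above 0.05. Rab5a, the Rab of early endosome fusion, had the largest fitted difference of any Rab gene (3.12 ± 1.89, adjusted p = 0.467). It gave 425 and 416.5 in CD8α+ cells and 334 and 2.61 in CD8α− cells, so the difference came from CD8α− replicate 2, and without that array it was 0.33. Rab5b was near background, and its second probe set gave 4.97 and 18.2 against 51.05 and 35.6, at least 1.64-fold lower (−1.92 ± 0.58, adjusted p = 0.26). Rab5c gave 336 and 312 against 496 and 193, between which the CD8α+ values lie (0.06 ± 0.55).

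Rab22a, needed for cross-presentation in mouse dendritic cells, gave 548 and 573 in CD8α+ cells and 626 and 629 in CD8α− cells (−0.16 ± 0.30, adjusted p = 0.805). Rab31, its close relative, gave 363 and 425 against 285 and 461 (0.12 ± 0.39). Neither separated the populations by more than the SE. Rab21, which carries integrins through early endosomes, gave 363 and 369 against 986 and 434 (−0.84 ± 0.50, adjusted p = 0.462). Rab24, tied to autophagy, gave 48.0 and 56.9 against 73.9 and 96.0 (−0.69 ± 0.34, adjusted p = 0.399). Both Rab21 and Rab24 were apart between the populations, the CD8α+ arrays being dimmer.

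Rabs of the ER and Golgi had 8 of 11 positive differences (5151 of 10532 over all genes) and a median of 0.62. With trimmed mean scaling 7 were positive, and on the deposited scale and with median centring 11. Relative to the median of all genes 7 or 8 were positive on each scale. Rab6b averaged below the signal for testing in CD8α− cells, where it was dimmer, and the count includes it. Rab6a, which drives retrograde transport from endosomes through the Golgi to the ER, gave 924 and 940 in CD8α+ cells and 456 and 425 in CD8α− cells. It was 2.12-fold higher (1.08 ± 0.31, adjusted p = 0.246). Its other 2 probe sets pointed the same way, with 396 and 397 against 223 and 215 (0.86 ± 0.30, adjusted p = 0.303) and with 239 and 172 against 91.9 and 138 (0.85 ± 0.39, adjusted p = 0.382). Rab6a was therefore brighter in CD8α+ cells on every probe set and array. Its unadjusted p was above 0.05 with the replicate numbers as a block and without CD8α+ replicate 1 or 2, at differences of 1.08, 1.09 and 1.07.

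Rab43, an ER and Golgi Rab that cross-presentation of cell-associated antigen needs in mouse CD8α+ dendritic cells, gave 593 and 519 in CD8α+ cells and 220 and 399 in CD8α− cells (0.91 ± 0.42, adjusted p = 0.383). A second probe set gave 165 and 202 against 133 and 116 (0.56 ± 0.33), and the last gave 74.05 and 62.8 against 70.0 and 70.6 (−0.04 ± 0.31). Rab43 was thus apart between the populations on 2 of its 3 tested probe sets, without passing the unadjusted threshold. Rab30, a Golgi Rab, gave 105 and 111 against 30.4 and 73.1 (1.20 ± 0.52, adjusted p = 0.364). Rab19 gave 137 and 143 against 50.85 and 123 (0.82 ± 0.52). Rab1b, which moves cargo out of the ER, gave 107 and 114 against 70.1 and 56.6 (0.81 ± 0.32, adjusted p = 0.337). On these 3 genes both CD8α+ arrays were above both CD8α− arrays.

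Rab1a, the partner of Rab1b at the ER exit, gave 2489 and 2476 against 2241 and 1527 (0.42 ± 0.36). A dim Rab1a probe set ran the other way, with 51.15 and 54.85 against 94.5 on CD8α− replicate 1 and nearly the same on CD8α− replicate 2 (−0.83 ± 0.31, adjusted p = 0.313). Rab2a, of the ER-Golgi intermediate compartment, gave 783 and 728 against 809.5 and 677 (0.03 ± 0.32). Its probe set ending in _x_at gave 22.4 and 7.86 against 35.7 and 50.9, at least 1.64-fold lower (−1.68 ± 0.61, adjusted p = 0.312). Rab18, of lipid droplets and the ER, and Rab33b, of the Golgi and autophagosomes, had differences of −0.55 and −0.57. Rab2b and Rab6b had differences of −0.26 and 0.62, with SEs of 0.77 and 0.56. Outside these groups, Rab28, which is linked to cilia, and Rab40c, which binds a ubiquitin ligase, had differences of −0.39 and 0.07.

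Of 16 paralog pairs with both genes tested, 8 had opposite signs, among Rab genes of which 25 differences were positive and 21 negative. In 4 of these pairs the gap was over 1 log2 unit. Rab4a, Rab5b, Rab38 and Rab39b, each in 1 or more of the 8 pairs, were above background on 2 or fewer of the 4 arrays. Rab38 and Rab39b also averaged below the signal for testing in CD8α+ cells. Both were thus tested only through the population where they were brighter, and the counts of pairs include them. Rab32 and Rab38, partners in melanosome formation, had differences of 1.47 and −0.95. Rab5a and Rab5b had 3.12 and −0.33, Rab8b and Rab8a had 1.61 and −0.04, and Rab39 and Rab39b had 0.73 and −0.64. For the Rab5 and Rab8 pairs the gap rested on CD8α− replicate 2, without which Rab5a stood at 0.33 and Rab8b at 0.15. Rab7 and Rab7b shared a direction, at 0.44 and 1.49, and so did Rab27a and Rab27b, at −1.77 and −0.85. A difference between paralogs was not tested in itself.

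Different probe sets of a Rab gene disagreed about as often as those of other genes. Of 21 Rab genes with at least 2 tested probe sets, 10 held both signs, and in 8 of these the probe sets were over 1 log2 unit apart. Of the 4619 genes with several tested probe sets, Rabs included, 2361 held both signs, 1538 of them over 1 log2 unit apart. The 8 Rab genes were Rab14, Rab1a, Rab22a, Rab27a, Rab2a, Rab2b, Rab7 and Rab8a. For Rabs, as for all genes, the spread was wider against CD8α− replicate 2. The range over a gene's probe sets of the CD8α+ mean minus CD8α− replicate 2 had a median of 1.59 log2 units, against 0.98 for CD8α− replicate 1, and was the wider one in 14 of 21 genes. Over all 4619 genes the medians were 1.32 and 0.75, and it was wider in 3180. For Rab22a, 1 dim probe set gave 68.5 and 75.8 in CD8α+ cells and 7.13 and 42.65 in CD8α− cells (2.05 ± 0.92), while its brightest was at −0.16. For Rab8a, a dim probe set gave 72.3 and 55.9 against 41.6 and 23.5 (1.02 ± 0.43). For Rab2b the 4 probe sets spanned −0.73 to 0.38. Whether such probe sets read different ends of the transcripts was not tested.

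**Figure D3:**
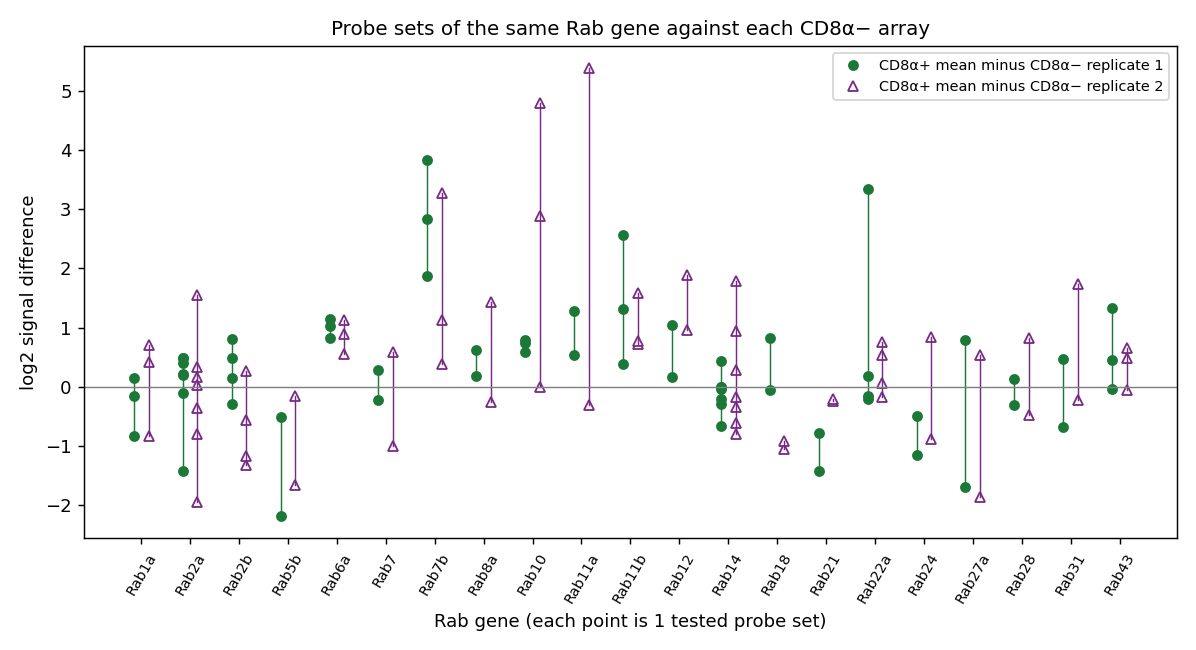
Log2 difference of each tested probe set of the 21 Rab genes with several, as the CD8α+ mean minus CD8α− replicate 1 (filled circles) and minus CD8α− replicate 2 (open triangles), with lines joining the probe sets of a gene. Rab10 and Rab11a spread by 4.80 and 5.69 log2 units against CD8α− replicate 2, and by 0.20 and 0.73 against CD8α− replicate 1, while Rab6a stays above 0 throughout.

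The proteins that act on Rabs were read from lists of 141 genes, of which 116 were tested. At an unadjusted p under 0.05, 6 were higher (5.17%, against 7.13% of all genes) and 9 were lower (7.76%, against 8.82%), and none passed after adjustment. Of these, Dennd2c and Rab11fip5 averaged below the signal for testing in CD8α− cells, and Mon1a, Tbc1d24 and Tbc1d30 did in CD8α+ cells. Those genes were tested only through the population where they were brighter, and the counts include them. Of 40 tested GEFs 3 were higher and 4 lower, against the same 7.13% and 8.82% of all genes. The lowest p among the listed genes was that of Rin2, a GEF for Rab5 proteins that also binds Ras, with 84.0 and 79.9 in CD8α+ cells and 359 and 496 in CD8α− cells. It was 5.15-fold lower (−2.37 ± 0.34, adjusted p = 0.126), and stayed lower under an unadjusted p of 0.05 in all 14 alternative settings. Dennd3, a GEF for Rab12, gave 49.8 and 40.1 against 134 and 176, 3.43-fold lower (−1.78 ± 0.35, adjusted p = 0.165). Dennd5a, which acts on Rab39 in human cells, gave 581 and 589.5 against 1032 and 1439, 2.08-fold lower (−1.06 ± 0.34, adjusted p = 0.279). Mon1a, part of the GEF for Rab7, gave 24.96 and 18.6 against 54.7 and 43.3, at least 1.88-fold lower, though CD8α+ values were below background. Dennd1b, a GEF for Rab35, gave 503.5 and 567 against 223 and 234.5, 2.34-fold higher (1.23 ± 0.31, adjusted p = 0.218). Hps4, part of the GEF that loads Rab32 and Rab38, gave 180 and 163 against 94.5 and 91.9, 1.83-fold higher (0.88 ± 0.31, adjusted p = 0.3). Dennd2c, named for the same domain as the other Dennd GEFs, gave 69.3 and 31.4 against 8.03 and 9.07, at least 1.49-fold higher. Its fitted difference was larger in size than that of Rin2 (2.45 ± 0.49, adjusted p = 0.17), but both CD8α− arrays were below background.

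Among 34 tested GAPs 0 were higher and 3 lower by gene at an unadjusted p under 0.05 in limma, against the 7.13% and 8.82% of all genes. Of 60 probe sets 5 were higher and 4 lower (7.75% and 7.79% of all), none past adjustment. Tbc1d10c, a GAP of lymphocytes and myeloid cells, gave 67.7 and 56.2 in CD8α+ cells and 119 and 123 in CD8α− cells, 1.97-fold lower (−0.98 ± 0.32, adjusted p = 0.279). Tbc1d30, a GAP tied to cilia, gave 16.8 and 18.04 against 54.1 and 45.6, at least 1.91-fold lower. Tbc1d24 gave 17.3 and 14.6 against 49.0 and 80.5, at least 2.42-fold lower, but another of its probe sets gave 55.3 and 49.4 against 7.43 and 18.4 (2.16, adjusted p = 0.213), so the gene has no settled direction. On the deposited scale and with median centring, where that other probe set is brighter, the difference was 2.35.

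Of 33 tested effectors 3 were higher and 2 lower by gene, against the 7.13% and 8.82% of all genes. By probe set 11 of 62 were higher and 4 lower, against 7.75% and 7.79% of all tested probe sets. Micall1, which links Rab8 and Rab35 to tubular recycling endosomes, gave 400 and 372 in CD8α+ cells and 114 and 166 in CD8α− cells, 2.8-fold higher (1.49 ± 0.35, adjusted p = 0.204). Inpp5b, an inositol phosphatase bound by several Rabs, gave 257 and 214 against 70.3 and 100.1, 2.79-fold higher (1.48 ± 0.36, adjusted p = 0.208). Rab11fip5, a Rab11 effector of recycling endosomes, gave 32.3 and 48.1 against 14.5 and 4.04, at least 1.26-fold higher. Mical3, a Rab6 and Rab8 effector of exocytosis, gave 221 and 220 against 552 and 508, 2.4-fold lower (−1.27 ± 0.31, adjusted p = 0.208). Rufy1, an endosomal effector of Rab4 and Rab14, gave 31.4 and 42.3 against 72.5 and 72.9, 1.99-fold lower (−0.995 ± 0.34, adjusted p = 0.288). The CD8α+ and CD8α− arrays were apart on each of these 5 genes, but the genes were named by their p on the same arrays, so this adds no support.

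None of the 6 tested genes for prenylation and extraction of Rabs had an unadjusted p under 0.05 in limma, and neither did the 3 for the kinases Lrrk1 and Lrrk2 and the phosphatase Ppm1h. Gdi2, the inhibitor that takes Rabs off membranes, gave 2708 and 2675 in CD8α+ cells and 2171 and 2748 in CD8α− cells (0.14 ± 0.32). Lrrk2, which phosphorylates Rab8, Rab10 and Rab29, gave 552 and 476 against 182 and 452 (0.84 ± 0.54, adjusted p = 0.487). Ppm1h, which reverses that phosphorylation, gave 779 and 721 against 471 and 554 (0.55 ± 0.32, adjusted p = 0.447). Lrrk1 gave 312 and 333 against 195 and 250 (0.55 ± 0.33). Both CD8α+ arrays were brighter than both CD8α− arrays on Lrrk1, Lrrk2 and Ppm1h, and the populations overlapped on Gdi2. For Lrrk2 the CD8α− arrays were 1.31 log2 units apart, more than the fitted difference. The CD8α+ mean of Lrrk2 lay 1.495 above CD8α− replicate 1 and 0.18 above CD8α− replicate 2. Leaving out 1 array moved the counts over all these lists to 23 higher and 29 lower without CD8α− replicate 1 (22.7% and 21.4% of all genes) and 16 and 15 without CD8α− replicate 2 (15.9% and 12.3% of all genes). They were 2 and 3 without CD8α+ replicate 1, and 1 each way without CD8α+ replicate 2, where 1.92% to 4.31% of all genes were called in a direction. Trimmed mean scaling gave 5 and 16, the deposited scale 14 and 1, and median centring 33 and 4, beside the shares of all genes given above for these scalings. On the deposited scale, where the median of all genes was 0.67, the differences of Dennd5a, Mical3 and Tbc1d10c were −0.12, −0.28 and −0.32.

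**Figure D4:**
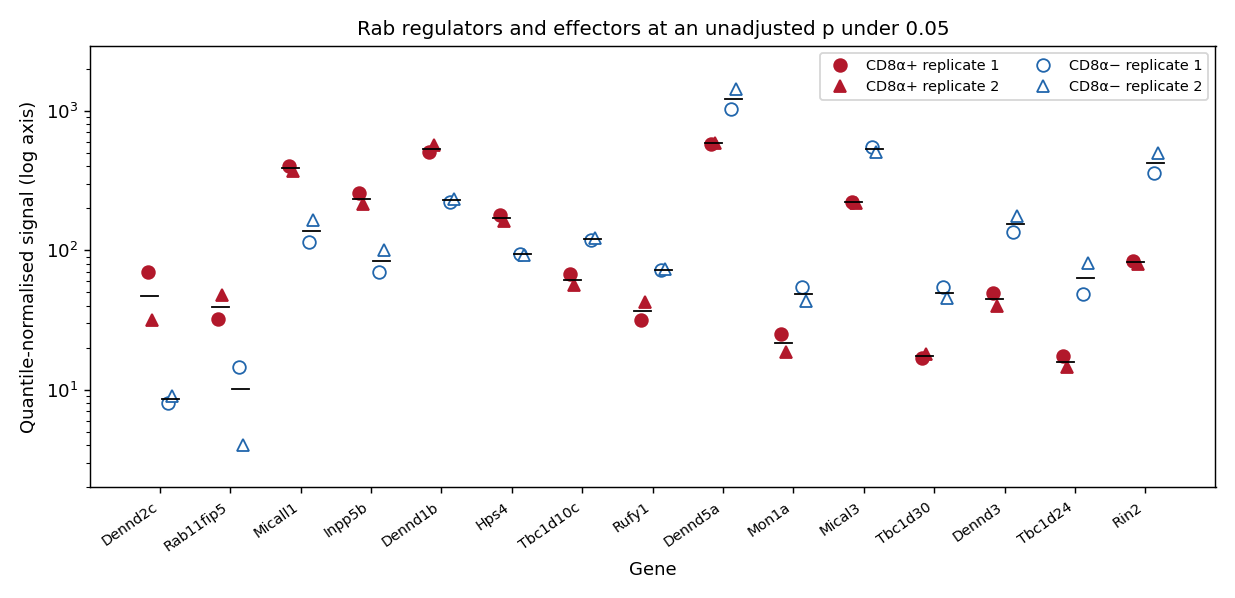
Quantile-normalised signal (log axis) of the 15 Rab regulators and effectors at an unadjusted p under 0.05, with filled points for CD8α+ arrays, open points for CD8α− arrays and bars for the mean on the log scale. The CD8α+ arrays lie above the CD8α− arrays for the 6 genes on the left and below them for the 9 on the right, with Rin2 at 84.0 and 79.9 against 359 and 496.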

How the data were processed

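RNA of CD8α+ and CD8α− splenic dendritic cells was measured on 4 arrays, grouped by the labels' titles. Each array has 1 linear intensity per probe set, which the authors deposited as MAS5 signals, per the submitters' processing notes. The sources used here give neither the scaling of the arrays nor the isolation of the cells. RNA preparation is described in 2 ways: the series' design text names labelled cDNA made from purified mRNA, and the labels' protocols name biotinylated cRNA made from total RNA. The arrays' deposited trimmed means ran from 48.7 to 127, so all 45101 probe sets were quantile normalised on the log2 scale, raised to a floor of 6.99 (the mean 25th percentile) and kept for testing at a mean signal of at least 23.0, which left 22519. Of 45037 non-control probe sets 34945 had 1 gene symbol, 932 several and 9160 none. Only those with 1 were named. Populations were compared in R 4.3.3 by two-sided moderated tests of limma 3.58.1, with no intensity trend and Benjamini-Hochberg adjustment, on 2 residual and 2.48 prior degrees of freedom. The fit was tested on simulated data with known changes. The number of arrays limits the precision. A gene was taken at its brightest tested probe set, one ending in _x_at only where it had no other. An "at least" fold sets the brighter population's mean against the dimmer population's, after raising each of its arrays to background where it lay below.

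Genes were named by rule: every tested Rab gene at an unadjusted p under 0.05, every Rab of an antigen presentation and dendritic cell list, paralog pairs of opposite sign over 1 log2 unit apart, genes whose probe sets differ in sign by over 1, and regulators and effectors at an unadjusted p under 0.05. Other Rab genes were named to account for every member. The members and lists, and the motifs searched, were chosen with earlier results of these data known. Same-numbered arrays did not deviate together (r = 0.03 over 2 pairs), so the numbers were not used as pairs. Scaling, filter, floor, trend, replicate block, probe set rule and each array left out were varied.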

Additional observations from a re-analysis of the deposited data

How the results depend on the processing

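The median over Rab genes was 0.07 log2 and the counts of higher and lower calls were 4 and 3 Rab genes, 8 and 6 Rab probe sets, and 6 and 9 regulator and effector genes. On the deposited scale these became 0.93, 8 and 0, 16 and 0, and 14 and 1. There 52 Rab probe sets were apart upward and 5 downward, as were 47.8% and 8.1% of all tested probe sets. With median centring they became 0.94, 20 and 1, 39 and 3, and 33 and 4. Then 55 and 6 were apart (54.2% and 10.4% of all tested probe sets) and 1 Rab probe set was past adjustment (1.80% of all). An intensity trend also passed 1 Rab probe set (0.266% of all). Trimmed mean scaling gave 7 lower Rab genes, 11 lower probe sets and 16 lower regulators. Without the filter on dim probe sets the median was −0.03, with 6 lower Rab genes and 10 higher and 15 lower regulators. In that setting 7.036% of all genes were higher and 8.503% lower, with a median of −0.02. The stricter filter left 3 lower probe sets (10.5% of all probe sets were then lower). A floor of 32 gave 6 lower Rab genes and 18 lower regulators, and the median over a gene's probe sets 7 higher Rab genes. Leaving out 1 array gave 1 to 14 higher and 1 to 9 lower Rab genes, 2 to 27 and 2 to 13 probe sets, 0 to 13 past adjustment, 37 to 45 and 24 to 31 apart, 1 to 23 and 1 to 29 regulators, and medians from −0.019 to 0.12. Over all genes those fits called 1.92% to 22.7% higher and 3.25% to 21.4% lower, and over all probe sets 2.07% to 24.0% and 2.91% to 19.2%, with 0 to 12.8% past adjustment. On the deposited scale 10.6% and 2.38% of all genes were called, with trimmed mean scaling 5.93% and 16.7%, and with median centring 28.9% and 4.26%. Of all probe sets these scalings called 10.3% and 2.0%, 5.68% and 16.8%, and 26.7% and 3.80%. In the fits without 1 array the populations were apart on 32.1% to 43.1% of all probe sets upward and 32.8% to 46.1% downward. The causes of these shifts were not tested. With the replicate numbers as a block there were 4 and 2 Rab genes, 12 and 4 probe sets, and 9 and 8 regulators. That fit called 7.65% and 8.33% of all genes, and 8.67% and 7.43% of all probe sets.

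Some single genes changed sign. On the deposited scale and with median centring, these were, with values within 0.01 of each other for the genes given here, Rab20 (0.021 and 0.023), Rab21 (0.16 and 0.16), Rab9 (0.20 and 0.20), Rab33b (0.42 and 0.42), Rab28 (0.46 and 0.46), Rab18 (0.41 and 0.42), Rab22a (0.84 and 0.84), Rab4b (0.86 and 0.86), Rab2b (0.32 and 0.33), Rab8a (0.93 and 0.94), Rab36 (0.15 and 0.15) and Tbc1d24 (2.35 and 2.35). The median of all genes was 0.67 and 0.69 on those scales. Relative to it Rab20, Rab21, Rab9, Rab33b, Rab28, Rab18, Rab2b and Rab36 stayed negative on both. Trimmed mean scaling turned Rab22a (0.032), Rab4b (0.051), Rab4a (−0.71) and Rab8a (0.12). A floor of 32 turned Rab39b (0.17) and Rab4a (−0.062). The median over probe sets turned Rab7 (−0.086), Rab14 (−0.51), Rab28 (0.042), Rab22a (0.31), Rab8a (0.49) and Tbc1d24 (0.089). Over the fits without 1 array, sign changes were seen for Rab4a (−0.63 to 0.81), Rab2a (−0.10 to 0.16), Rab40c (−0.83 to 0.97), Rab5b (−0.72 to 0.06), Rab39b (−1.91 to 0.63), Rab36 (−0.57 to 0.51), Rab9b (−1.44 to 0.29), Rab31 (−0.23 to 0.46), Rab11a (−0.31 to 0.55), Rab14 (−0.032 to 1.79), Rab6b (−0.079 to 1.32), Rab4b (−0.27 to 0.037), Rab2b (−1.32 to 0.80), Rab5c (−0.62 to 0.75) and Rab8a (−0.26 to 0.18). Among the Rab genes with an unadjusted p under 0.05, Rab13, Rab27a, Rab32, Rab7b, Rab6a and Rab29 kept their direction in all alternatives run. Differences near background, as for Rab5b, Rab9b, Rab39b and Rab40c, are limited by signal.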
